A study of Mus musculus with 24 samples.

Results

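Broad H3K27ac domains are stretches of at least 5000 bp in which neighbouring peaks of acetylated lysine 27 of histone H3 join into a single region. They were found in asynchronously growing mouse embryonic stem cells by merging the peaks of both asynchronous H3K27ac lists that shared at least 1 bp and keeping merged regions with a peak in both lists. Of 51499 merged regions, 34684 had a peak in both lists, and 1066 of these (3.07%) reached the minimum width. The asynchronous H3K27ac lists therefore chose the members, and their width, number and asynchronous enrichment are given as description.

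The study profiled H3K27ac and the pluripotency factors Klf4, Oct4 and Sox2 by chromatin immunoprecipitation and sequencing (ChIP-seq) in mitotic and asynchronous cells of V6.5, a single embryonic stem cell line on a C57BL/6-129 background. Mitotic cells were shaken off after 7 h of nocodazole, which blocks the spindle; the labels give 100 ug/ml, and the unit may be mistaken because far lower doses are usual. Per the labels, the cells grew on irradiated feeders with LIF and serum and were then expanded on gelatin with inhibitors of Mek1 and Gsk3 before synchronization. Peak lists came from 2 mitotic and 2 asynchronous H3K27ac libraries, 3 mitotic and 3 asynchronous Klf4 libraries, 2 mitotic libraries and 1 asynchronous library each for Oct4 and Sox2, and 1 Klf4 library of a mix of 10% stem cells and 90% neural progenitors. Nothing in the labels says that replicates came from separate cultures, so differences between them may be technical. The H3K27ac libraries were mitotic in project EC-DG-3514 and asynchronous in project EC-DG-3458, so state and project cannot be told apart for this mark. Read depth was unknown, and list length was the available measure of yield.

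H3K27ac is placed on nucleosomes by the acetyltransferases p300 and CBP at active promoters and enhancers and blocks methylation of the same lysine. Long stretches of the mark form where many enhancers or a promoter and its enhancers lie close together, often by genes that set cell identity. During mitosis chromosomes condense, transcription largely stops and many factors leave chromatin, so marks and factors that remain are studied as candidates for passing on the active state to daughter cells.

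The 10 widest domains included that of a large microRNA cluster. The domain assigned to Nlrp12 (chr7:3198281-3221929, mm10, counted from 1) covered the miR-290 to miR-295 cluster, the most abundant microRNA cluster of naive mouse stem cells, whose members promote rapid passage through the G1 phase. Of 1738 mature mouse microRNAs in the RefSeq table, 34 from 21 genes lay in 12 domains, and 17 of the 34 belonged to this cluster. The mature sequences below show what the domain encodes: capitals mark the seed, bases 2 to 8 of the microRNA, which pairs with target messages. They are RefSeq sequences placed on GRCm38.p6, the plus strand of chromosome 7, written 5′ to 3′.
mmu-miR-291a-3p: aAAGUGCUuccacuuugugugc
mmu-miR-294-3p: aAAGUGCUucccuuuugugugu
mmu-miR-295-3p: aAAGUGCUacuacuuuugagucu
mmu-miR-291b-3p: aAAGUGCAuccauuuuguuugu
mmu-miR-290a-3p: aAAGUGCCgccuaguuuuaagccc
mmu-miR-293-3p: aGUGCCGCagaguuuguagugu
The seed AAGUGCU was shared by 3 cluster members (miR-291a-3p, miR-294-3p and miR-295-3p). The seeds of miR-291b-3p (AAGUGCA), miR-290a-3p (AAGUGCC) and miR-293-3p (GUGCCGC) each occurred in no other of the 17 cluster sequences read. Those sequences held miR-292a-5p but not the 3p arm of miR-292a, so the cluster was not read in full. On the opposite arms the seeds CUCAAAC (3 members), AUCAAAG (2) and CUCAAAA (2) recurred. The other 17 mature microRNAs in domains carried 17 seeds, none of them a seed of the cluster, and included miR-135b-3p by Lemd1, both arms of miR-92b by Muc1 and miR-150-3p by Rpl13a.

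Promoters inside domains were read where the factor data bear on them. The RefSeq window of each start runs from 250 bases before to 50 bases after it (300 bases, GRCm38.p6, 5′ to 3′ on the strand of the gene), and capitals mark matches on either strand to GGGNGTG for Klf4, ATGCAAAT for Oct4 or CATTGTT for Sox2. The 3 windows shown differ in their factor peaks: the Nanog window overlapped a peak in 12 of 12 factor lists, the Zfp42 window in 8, and the Klf4 window in the 3 asynchronous Klf4 lists and no other.
Nanog, chr6:122707315-122707614, plus strand: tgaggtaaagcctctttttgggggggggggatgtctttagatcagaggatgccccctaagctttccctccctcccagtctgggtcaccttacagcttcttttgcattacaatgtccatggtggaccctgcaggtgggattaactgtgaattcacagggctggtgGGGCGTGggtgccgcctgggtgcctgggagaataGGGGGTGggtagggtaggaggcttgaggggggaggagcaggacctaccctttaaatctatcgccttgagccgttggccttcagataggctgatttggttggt
Zfp42, chr8:43306960-43307259, minus strand: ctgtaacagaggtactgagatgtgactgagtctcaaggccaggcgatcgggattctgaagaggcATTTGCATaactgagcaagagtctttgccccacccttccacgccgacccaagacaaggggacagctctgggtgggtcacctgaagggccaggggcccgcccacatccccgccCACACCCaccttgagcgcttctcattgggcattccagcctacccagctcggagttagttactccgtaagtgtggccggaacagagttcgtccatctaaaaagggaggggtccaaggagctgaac
Klf4, chr4:55532426-55532725, minus strand: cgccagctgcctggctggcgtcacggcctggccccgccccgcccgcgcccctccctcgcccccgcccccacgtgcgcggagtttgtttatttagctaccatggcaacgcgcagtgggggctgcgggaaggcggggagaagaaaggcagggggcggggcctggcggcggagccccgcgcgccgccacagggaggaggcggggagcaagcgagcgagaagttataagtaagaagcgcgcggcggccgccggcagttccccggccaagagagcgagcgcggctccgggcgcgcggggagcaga
The Nanog window held 2 matches to GGGNGTG, the Zfp42 window 1 match to GGGNGTG and 1 to ATGCAAAT, and the Klf4 window none of the 3 motifs.

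The domains were wide and few. Their median width was 6508.5 bp (quartiles 5615 and 8198.25), against 1071 bp in the 33618 narrower regions with a peak in both asynchronous lists. They spanned 8.01 of the 53.2 Mb in such regions (15.0%). Of the 1066 domains, 149 were at least 10 kb wide and 10 at least 20 kb, and 253 (23.7%) had another domain within 10 kb. The label of breadth rests in part on merging: 432 domains were made of 2 or more peaks in asynchronous list 1 and 601 in asynchronous list 2, and 531 regions held a single peak of at least 5000 bp in each list. The members just inside the width minimum were assigned to Sh2d4b (5002 bp), Klf4 (5002 bp) and Tmem267 (5005 bp), and the regions just outside to Adgre5 (4997 bp), 9530077C05Rik (4996 bp) and 2610301B20Rik (4995 bp). Mitotic peaks of lists 1 and 2 covered 31.8% and 8.7% of the Sh2d4b domain, 86.3% and 92.0% of the Klf4 domain and 75.4% and 68.0% of the Tmem267 domain, against 87.4% and 86.7% of the Adgre5 region, 80.9% and 70.1% of the 9530077C05Rik region and 81.1% and 76.1% of the 2610301B20Rik region. No region of the minimum width was found in only 1 asynchronous list.

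Of the mitotic libraries, H3K27ac mitotic 2 stood apart at a few genes. Peak fold, the authors' own ratio of signal to local background, was highest in this list at Sox2 (93.7), at Myc (2 peaks of 92.8), at Klf4 (91.4) and at Pou5f1 (67.4), whereas in mitotic 1 the same places had 12.5 at Sox2, no peak at Myc, 5.52 at Klf4 and 11.3 at Pou5f1. Its next highest peak, at Ppp2r5c, had a fold of 57.1, against 55.8 in mitotic 1. Over 25461 overlapping peaks the median ratio of mitotic 2 to mitotic 1 was 0.978, and only 5 ratios exceeded 3, all of them at Klf4, Sox2 and Pou5f1. Peaks over the same gene bodies were also present in some mitotic factor lists and absent from their replicates: Klf4 mitotic 1 had peaks in the spans of Sox2 (2 peaks, highest fold 10.1), Myc (2, 8.18) and Klf4 (1, 6.26) where Klf4 mitotic 2 and 3 had none. The asynchronous Klf4 lists 1, 2 and 3 had peaks at Myc (highest folds 4.59, 3.36 and 4.56) and at Klf4 (6.55, 4.19 and 7.21), and only list 2 had one at Sox2 (2.68). Oct4 mitotic 1 had 5 peaks in the span of Pou5f1 (highest fold 13.7), where Oct4 mitotic 2 had none and Oct4 asynchronous 1 had 5 (8.98). The peak names inside the 2 mitotic Oct4 lists carry the opposite replicate number to the titles, so which library is mitotic 1 and which mitotic 2 is uncertain for every Oct4 value; the numbers of the titles are used. The source of these peaks was not tested. A further domain, of 5935 bp on chromosome 17, lay over Rn18s-rs5, a sequence related to 18S ribosomal RNA; its asynchronous folds of 2.31 and 2.28 were the lowest of all domains, and it had no mitotic H3K27ac peak but a peak in 6 factor lists. Without the domains at Pou5f1, Sox2, Klf4 and Rn18s-rs5, a choice made after seeing the data, 1062 domains remained, of which 97.2% had a peak in both mitotic H3K27ac lists, with a mean of 66.3% of base pairs covered.

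Nearly all domains kept an H3K27ac peak in mitosis. A peak was present in both mitotic lists in 1035 of 1066 domains (97.1%, 95% Wilson interval 95.9 to 97.9, counting error only), in a single mitotic list in 20 and in neither in 11. Among all 34684 regions in both asynchronous lists the same was true of 47.9%, and among the narrower regions 46.4% had a peak in both mitotic lists and 38.1% in neither. Per list, 1050 domains (98.5%) had a peak in mitotic 1 and 1040 (97.6%) in mitotic 2, against 57.8% and 53.2% of all such regions. A wide region meets a peak more readily than a narrow one. The presence of a peak was therefore set beside the share of base pairs covered, which does not rise for that reason alone. Domains also had higher folds, with a median highest fold of 23.1 and 20.9 in asynchronous 1 and 2. In narrower regions these medians were 7.14 and 6.80. Covered share was not adjusted for fold, and the parts of width and fold were not tested.

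Mitotic peaks covered 66.3% of the base pairs of the domains in mitotic 1 and 66.3% in mitotic 2, against 43.8% and 42.2% of the narrower regions. The difference of 23.3 points (SD 1.17, n = 2 libraries) was larger than the spread between the libraries, but an exact two-sided sign-flip permutation test over 2 libraries gave p = 0.5, the smallest it can give. By width class, mitotic 1 and mitotic 2 covered 31.4% and 28.6% of regions under 1 kb, 42.4% and 40.5% at 1 to 2 kb, 52.9% and 52.3% at 2 to 5 kb, 62.8% and 62.9% at 5 to 10 kb, and 76.6% and 76.8% at 10 kb or more. Covered share was thus higher in each wider class in both lists, with domains continuing the order seen among narrower regions. All 149 domains of at least 10 kb had a peak in both mitotic lists.

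**Figure D1:**
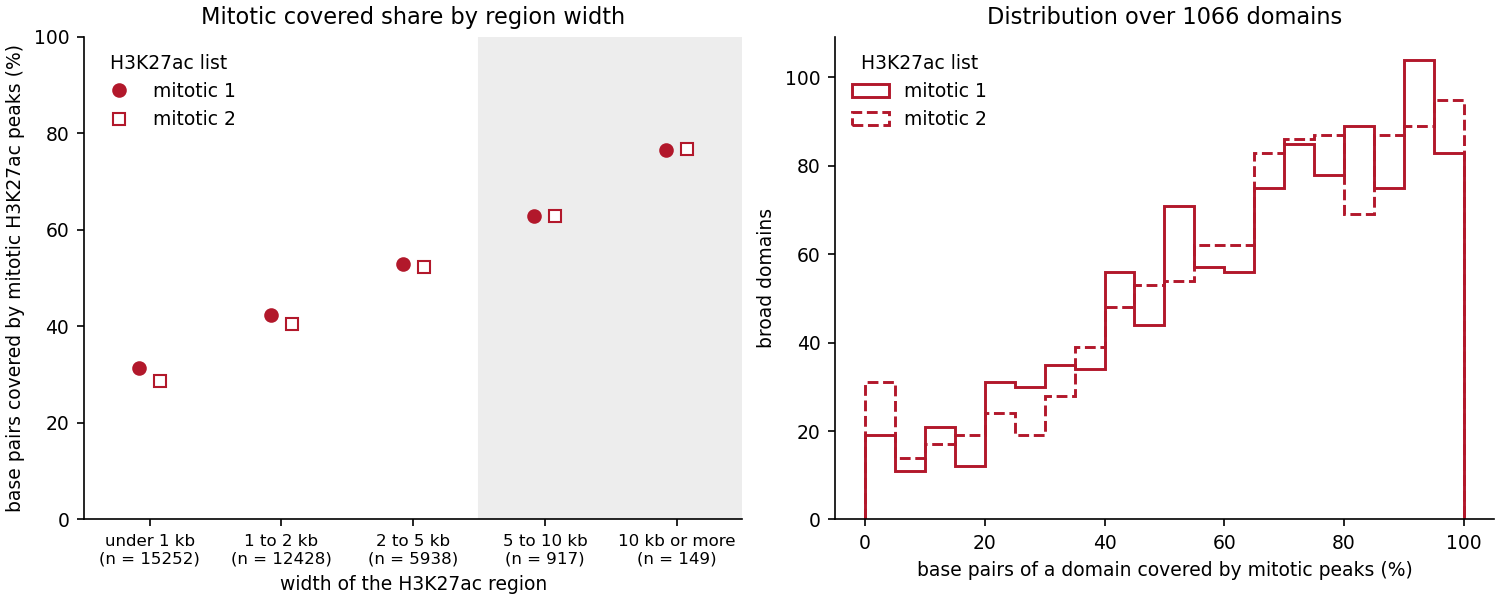
Left, percent of base pairs covered by peaks of H3K27ac mitotic 1 (filled circles) and mitotic 2 (open squares), by width of the region, with broad domains on the grey ground; each wider class lies higher, up to 76.6% and 76.8%. Right, number of the 1066 domains by percent of base pairs covered in mitotic 1 (solid) and mitotic 2 (dashed), with most domains above 50%.

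The domains differed widely among themselves in mitosis. The covered share had a median of 68.6% (quartiles 47.2 and 84.9) in mitotic 1 and 69.0% (47.7 and 85.3) in mitotic 2, and ran from 0 to 100% in both. At least 90% was covered in 187 and 184 domains, and under 10% in 30 and 45. The mitotic lists gave similar values for single domains: the median difference between them was 5.76 points, 24 domains differed by over 25 points, and Pearson's r across the 1066 domains was 0.919, a description across regions that share libraries. Mitotic 1 and 2 had 2 or more separate peaks in 841 and 762 domains.

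Coverage was densest in the middle of the domains. In the middle 20% of the width, peaks of mitotic 1 and mitotic 2 covered 75.8% and 76.6% of the domains, and in the outer 10% at each side 40.3% and 40.0%. The outermost asynchronous peaks set the domain ends, so a list that did not set them can fall short there. No left-out asynchronous list was profiled by position, so this shape is not read as particular to mitosis. Because the mitotic and asynchronous lists differ in length (36526 and 30771 mitotic peaks, against 47475 and 46491 asynchronous peaks), the domains were also defined from each asynchronous list alone, so that the other one could be measured in the same way. The 787 domains of asynchronous 1 were covered to 71.9% by mitotic 1, 72.1% by mitotic 2 and 96.0% by asynchronous 2. The 667 domains of asynchronous 2 were covered to 73.5%, 73.8% and, by asynchronous 1, 97.5%. Both mitotic lists thus lay below the left-out asynchronous list, in a comparison that also crosses projects and carries no test. Narrower regions of asynchronous 1 were covered to 78.2% by asynchronous 2, and those of asynchronous 2 to 84.9% by asynchronous 1. A left-out asynchronous list thus also covered more of the domains than of the narrower regions.

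**Figure D2:**
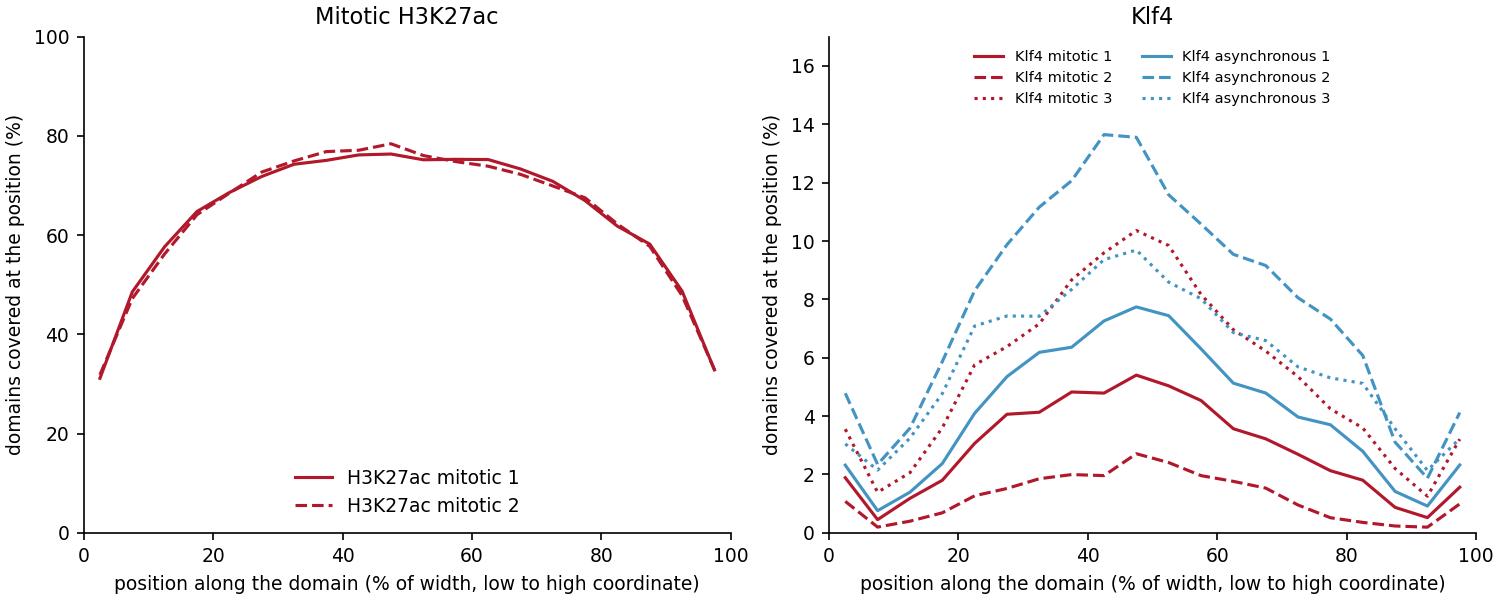
Percent of the 1066 domains covered by a peak at each position along the domain, from the low to the high coordinate, for H3K27ac mitotic 1 and 2 (left) and the 6 Klf4 libraries (right, mitotic in red and asynchronous in blue). Mitotic H3K27ac and Klf4 are both highest near the middle, and the H3K27ac lines of mitotic 1 and 2 nearly coincide. The domain ends were set by the asynchronous H3K27ac peaks, and no left-out asynchronous H3K27ac list is drawn.

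Mitotic peaks covered more of the domains at promoters than of the rest. A protein-coding start lay inside 324 domains (30.4%, against 23.9% of narrower regions), 357 lay inside a gene without a start, and 385 outside genes. Mitotic 1 and mitotic 2 covered 74.3% and 73.9% of the domains with a start, 61.8% and 61.4% of those inside a gene, and 63.4% and 64.4% of those outside genes. These gaps exceeded the difference between the lists, and the exact test cannot reach the threshold with 2 libraries. In the highest and the lowest quartile of covered share, 46.8% and 16.9% held a start, and the median asynchronous fold was 26.4 and 17.5. Median width differed little in comparison, at 7111 bp in the highest quartile and 6133 bp in the lowest.

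Among the 10 widest domains the covered share of mitotic 1 ran from 69.4% to 96.8%. The widest, 37343 bp on chromosome 17 (chr17:36968275-37005617), was assigned to H2-M5 and held the start of Zfp57, a zinc finger protein that protects imprinted methylation; mitotic 1 and 2 covered 89.9% and 85.9% of it. The Nlrp12 domain with the microRNA cluster (23649 bp) was covered to 96.4% and 94.8%. Mcl1, which encodes an inhibitor of apoptosis, lay in a domain of 22951 bp covered to 89.7% and 95.2%. The domain of 21033 bp on chromosome 9 with the starts of Ooep and Dppa5a, genes of oocytes and early embryos, was covered to 87.1% and 92.3%. Lowest of the 10 was the domain of 25233 bp in Mapt, the gene of the microtubule protein tau, at 69.4% and 60.9%. The others were assigned to Gabrp, Myo10, Csnk1a1, Fbxo36 and Sik1 (72.4% to 96.8% in mitotic 1 and 72.9% to 96.2% in mitotic 2).

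Of the 6 domains with the highest asynchronous folds, those at Nucks1, Dido1 and Phc1 were nearly fully covered. The Nucks1 domain (5446 bp) was covered to 100% in both mitotic lists, and the Dido1 domain to 96.8% and 95.9%. Phc1, a subunit of Polycomb repressive complex 1, had a domain of 11035 bp covered to 93.7% and 91.3%, with a peak in 12 of 12 factor lists. The domains of Bicral, Setd1b and Ptma were covered to 83.4% and 86.8%, 78.1% and 78.4%, and 70.6% and 71.8%. Full coverage in both lists was also seen in the widest such domains, assigned to C77080, Zfp710, Ier2 (an immediate early gene), Lemd1, Zc3h11a and Aebp2 (a cofactor of Polycomb repressive complex 2).

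At the other end, 11 domains had no mitotic H3K27ac peak in either list. Beside that over Rn18s-rs5, the widest lay at Lamc1 (6440 bp), a laminin subunit of the basement membrane, in Tbc1d8 (6263 bp), in Wrap53 (6133 bp), near Scn3a (6091 bp), a neuronal sodium channel, and near Pole4 (6032 bp), a subunit of DNA polymerase epsilon. In asynchronous 1 and 2 the highest folds were 23.3 and 14.8 at Lamc1, 9.54 and 8.95 at Tbc1d8, 6.00 and 7.45 at Wrap53, 15.6 and 16.6 at Scn3a, and 22.0 and 20.9 at Pole4, against medians of 23.1 and 20.9 over all domains. At Tbc1d8, Wrap53 and Scn3a both values were thus below the medians. Factor peaks were nevertheless listed in some of them in mitosis: Lamc1 had Sox2 peaks in both mitotic Sox2 lists (folds 4.36 and 5.51), Scn3a had a peak in 2 mitotic factor lists, and Pole4 had peaks in 3. Tbc1d8 had a peak in none of the 12 factor lists.

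Klf4 peaks lay in fewer domains in the mitotic than in the asynchronous libraries, from lists of unequal length. A peak lay in 499, 335 and 703 domains in mitotic 1, 2 and 3 (46.8%, 31.4% and 65.9%), against 743, 938 and 737 in asynchronous 1, 2 and 3 (69.7%, 88.0% and 69.1%). Every mitotic library was below every asynchronous library. Over all regions in both H3K27ac lists the percent with a peak was 13.6, 7.71 and 19.4 in the mitotic and 20.7, 37 and 29.9 in the asynchronous libraries. Most of those regions are narrower than a domain, and a wide region meets a factor peak more readily. This limit holds for each background of factor peaks given below. The means over domains were 48.1% ± 17.3 in mitotic and 75.6% ± 10.7 in asynchronous libraries (SD, n = 3 each), a difference of −27.5 points (exact two-sided permutation test, p = 0.1, the lowest p that 3 libraries against 3 allow, above the threshold of 0.05). Lists differed in length, at 5754, 3795 and 8438 mitotic and 10575, 21307 and 16455 asynchronous peaks. Within project EC-EA-3702, which alone has Klf4 in both states, 65.9% of domains had a peak in mitotic 3 and 69.1% in asynchronous 3, a difference of −3.19 points. With lists cut to the length of the shortest, the difference was −5.61 points (exact p = 0.5).

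Read as a share of each list, more of the mitotic Klf4 peaks lay in domains, and more also lay in narrower H3K27ac regions. The share was 11.3%, 11.0% and 11.6% in mitotic 1, 2 and 3, and 10.8%, 8.30% and 7.15% in asynchronous 1, 2 and 3, again without overlap. The difference of the means was 2.56 points, 11.3% ± 0.269 in mitotic and 8.75% ± 1.87 in asynchronous libraries (SD, n = 3 each; exact p = 0.1, the smallest possible), and within project EC-EA-3702 it was 4.43 points. It turned round with lists of equal length: the shares were then 12.1%, 11.0% and 14.5% in mitotic and 16.6%, 16.9% and 10.0% in asynchronous libraries, a difference of −1.95 points (exact p = 0.5).

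**Figure D3:**
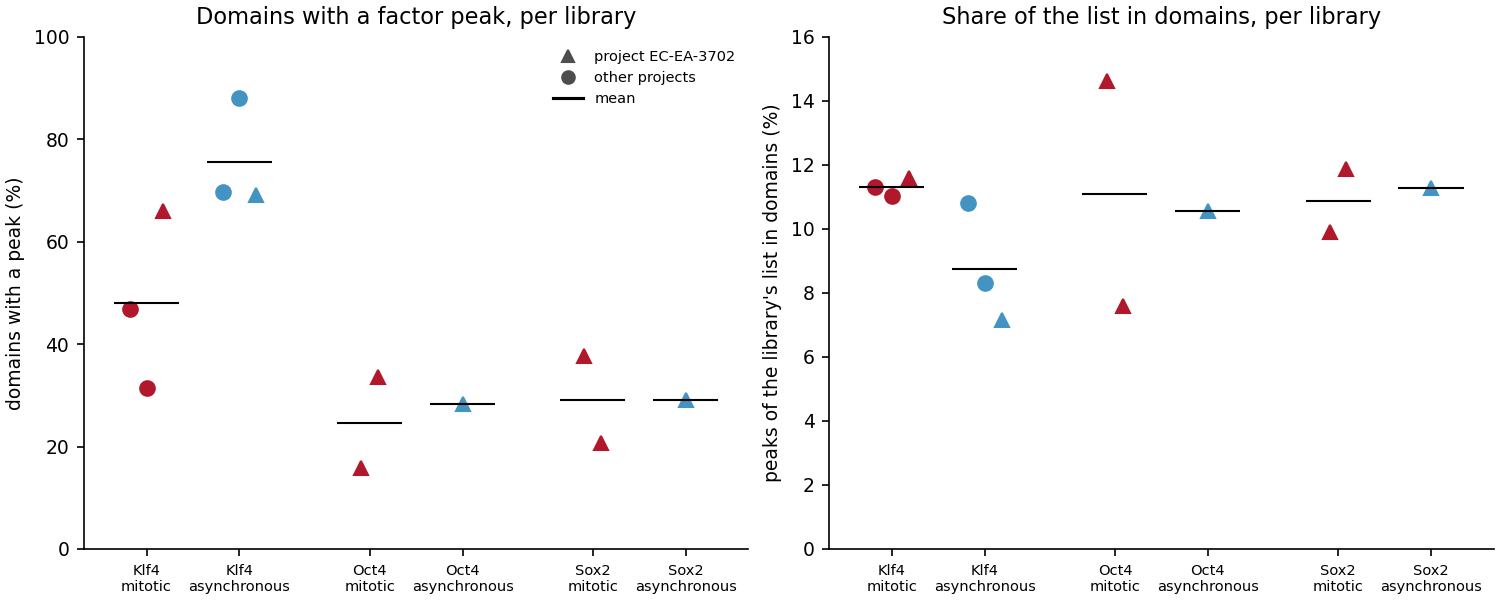
Percent of the 1066 domains with a factor peak (left) and percent of each list's peaks that lie in domains (right), 1 point per library, mitotic in red and asynchronous in blue; triangles are project EC-EA-3702, circles other projects and bars the mean. For Klf4 the mitotic points lie below the asynchronous ones on the left, at 31.4% to 65.9% against 69.1% to 88.0%, and above them on the right.

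For Oct4 and for Sox2, the mitotic libraries lay on both sides of the asynchronous one. Oct4 had a peak in 169 and 357 domains in mitotic 1 and 2 (15.9% and 33.5%), against 301 in the asynchronous library (28.2%), where all regions gave 2.5%, 7.8% and 6.12%. Sox2 had a peak in 402 and 220 domains in mitotic 1 and 2 (37.7% and 20.6%), against 309 in the asynchronous library (29.0%), where all regions gave 8.88%, 3.9% and 5.42%. Both differences between the states had exact p = 1, and with 2 libraries against 1 the test has only 3 assignments and cannot pass the threshold. All Oct4 and Sox2 libraries came from project EC-EA-3702.

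A domain was next called occupied in mitosis when at least 2 Klf4 or both Oct4 or Sox2 mitotic lists had a peak in it, and in asynchronous cells when at least 2 Klf4 lists or the single Oct4 or Sox2 list did. Klf4 occupied 499 domains in mitosis and 843 in asynchronous cells, with 483 in both (background over all regions 11.1% and 28.7%). Oct4 occupied 156 and 301, with 126 in both (background 2.29% and 6.12%), and Sox2 207 and 309, with 168 in both (background 3.56% and 5.42%). For Oct4 and Sox2 the mitotic call needed 2 lists and the asynchronous call 1. The mitotic call was thus the stricter, and these lower mitotic counts are not read as loss. The same limit holds for every later count of occupancy that includes Oct4 or Sox2. At least 1 of the factors occupied 601 domains (56.4%) in mitosis and 901 (84.5%) in asynchronous cells (background 14.1% and 33%), and all 3 factors occupied 69 (6.47%) and 160 (15.0%, background 0.556% and 1.54%). Mitosis-only occupancy was found in 16 domains for Klf4, 30 for Oct4 and 39 for Sox2 (background 0.975%, 0.568% and 0.937% of all regions). Occupancy rose with width also among narrower regions. Klf4 in mitosis was called in 5.53% of regions under 1 kb, 20.7% at 2 to 5 kb and 71.8% at 10 kb or more. The gap between domains and background is therefore not read as enrichment, and density per Mb is given below.

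Mitotic coverage was higher in domains with Klf4, or with Oct4 and Sox2 together, in mitosis than in those with no factor. Domains with Sox2 alone lay near those with no factor. Mitotic 1 and mitotic 2 covered 75.7% and 76.7% of the 69 domains with all 3 factors in mitosis. They covered 79.1% and 77.0% of the 26 with Klf4 and Oct4, and 72.6% and 73.4% of the 64 with Klf4 and Sox2. The 33 with Oct4 and Sox2 were covered to 68.8% and 68.9%, and the 340 with Klf4 alone to 72.1% and 71.8%. Values were 61.3% and 63.3% in the 28 with Oct4 alone, and 55.1% and 58.4% in the 41 with Sox2 alone. In the 465 with no factor in mitosis they were 58.4% and 58.1%. From the lowest to the highest quartile of covered share, mitotic Klf4 was found in 27.3%, 41.4%, 56.4% and 62.2% of domains, and asynchronous Klf4 in 67.8%, 77.8%, 82.3% and 88.4%. Mitotic Oct4 was found in 8.61%, 15.4%, 15.0% and 19.5%, and mitotic Sox2 in 13.1%, 21.1%, 23.3% and 20.2%. These are descriptions across domains that share libraries, and domain width and fold also differed between the quartiles. Within domains, between 90.0% and 95.2% of the peaks of each factor list overlapped a mitotic H3K27ac peak. Mitotic peaks already covered 66.3% of domain base pairs in both lists, more near the middle, and an overlap of 1 bp sufficed. The share to be found without any tie to factor peaks was not measured, so no tie is read from this overlap.

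Peaks per Mb were compared between domains and narrower regions within each library, which takes list length out. For Klf4 the log2 ratio of density, domains over narrower regions, was −0.02, 0.01 and 0.12 in mitotic and 0.07, −0.20 and −0.45 in asynchronous libraries, with a mean of −0.08 (SD 0.21, n = 6; exact two-sided sign-flip permutation test, p = 0.469, adjusted p = 0.469 over the 3 antibodies). For Oct4 it was 0.89 and 0.33 in mitotic libraries and 0.45 in the asynchronous one (mean 0.56, n = 3, exact p = 0.25, the smallest possible; adjusted p = 0.375). For Sox2 it was 0.35 and 0.56 in mitotic libraries and 0.56 in the asynchronous one (mean 0.49, n = 3, exact p = 0.25; adjusted p = 0.375). A narrow region counts more peaks that touch only its edge, and when the midpoint of the factor peak had to lie inside, the mean ratios were 0.32 for Klf4 (p = 0.0625 by the exact test, higher in 5 of 6 libraries), 1.34 for Oct4 and 1.49 for Sox2. The sign for Klf4 thus depended on the overlap rule, while Oct4 and Sox2 were denser in domains in 3 of 3 libraries each under both rules.

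Single factor sites in domains were recovered more often than those in narrower regions in each of the mitotic libraries. Of 1303 asynchronous Klf4 sites in domains, 535 (41.1%) had a peak in at least 2 mitotic lists, against 31.3% of sites in narrower regions and 13.4% outside. Mitotic 1, 2 and 3 recovered 42.1%, 27.9% and 63.9% of Klf4 sites in domains and 35.2%, 22.4% and 47.5% in narrower regions, a mean difference of 9.53 points (SD 5.92, n = 3; exact sign-flip permutation test, p = 0.25, the smallest possible; adjusted p = 0.5). For Oct4, mitotic 1 and 2 recovered 39.4% and 69.4% of sites in domains and 30.2% and 64.4% in narrower regions (mean difference 7.12 points). For Sox2 they recovered 77.7% and 54.0% in domains and 71.5% and 48.6% in narrower regions (mean difference 5.80 points); both had exact p = 0.5, the smallest with 2 libraries, and adjusted p = 0.5. Klf4 sites in domains were also stronger, with a median strength percentile of 65.8 against 57.3 in narrower regions. Among Klf4 sites of the highest strength tertile the share found in at least 2 mitotic lists was 61.2% in domains and 52.9% in narrower regions, in the middle tertile 26.8% and 25.8%, and in the lowest 14.0% and 12.03%.

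Domains with a peak in all 12 factor lists numbered 29, and 58 had a peak in none, where of all regions 0.182% had a peak in all and 48.5% in none. Named by width, the first of the 29 were those of Nlrp12, Myo10, Jam2, Ppp1r12a, Aff1, Zbtb45, Klf9 and Phc1. In the Nlrp12 domain, factor peaks of several lists coincided at about 3 kb, 8.4 kb and 15.4 kb from its low end. At 3 kb, 2 of 3 mitotic and 3 of 3 asynchronous Klf4 lists, Sox2 mitotic 1 and the asynchronous Oct4 and Sox2 lists had a peak. At 15.4 kb, a peak was listed in both mitotic and the asynchronous libraries of Oct4 (folds 4.79, 5.58 and 5.47) and of Sox2 (3.85, 4.83 and 5.92). The highest Klf4 folds in the domain were 6.06, 4.72 and 5.70 in mitotic and 5.90, 6.87 and 8.15 in asynchronous libraries, so that the states overlapped.

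**Figure D4:**
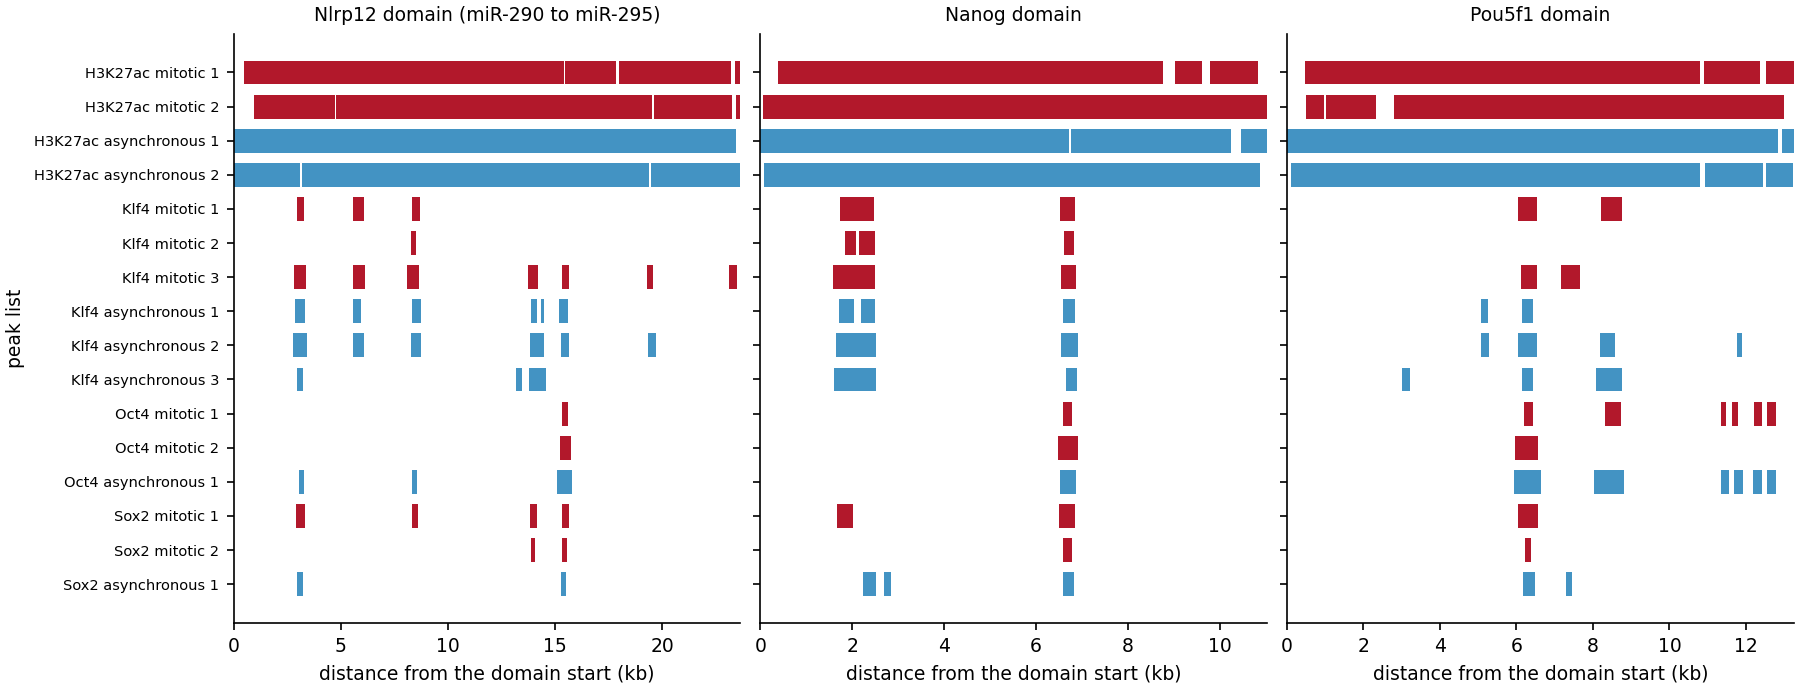
Peaks in the domains of Nlrp12, Nanog and Pou5f1, 1 line per list, against distance from the low-coordinate end of the domain in kb; mitotic lists are red and asynchronous lists blue. In the Nanog domain each factor list has a peak between 6 and 7 kb, and mitotic H3K27ac spans nearly the whole of each domain.

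The naive pluripotency genes were the list most often linked to domains, among lists chosen with earlier results of these data known. A domain was linked to a gene when it lay within 20 kb of the gene, and 1322 of 21900 protein-coding genes (6.04%) had such a domain, 372 (1.7%) with their start inside. Of 30 naive pluripotency genes, 19 (63.3%) were linked, 17 of them with the start inside. They were Pou5f1, Sox2, Nanog, Klf4, Klf2, Klf5, Esrrb, Tbx3, Tfcp2l1, Zfp42, Sall4, Fbxo15, Dppa5a, Tdgf1, Zscan10, Mybl2, Tet2, Tet1 and Rif1. All 30 had an H3K27ac region of some width within the same distance, as had 15284 of the 21900 protein-coding genes. The 6.04% thus includes genes with no such region. All 19 had a linked domain with a peak in both mitotic H3K27ac lists, as had 1281 (96.9%) of the 1322 linked genes. Their 31 linked domains had a median mitotic covered share of 87.5%, against 69.9% over the 915 domains linked to any gene. High shares were not particular to this list. The median was 90.1% over the 6 domains linked to cytosolic ribosomal protein genes and 81.2% over the 10 linked to housekeeping genes. The naive domains were also wider (median 9381 bp, against 6524 bp for any gene), and the part of width was not tested. Klf4 occupied a linked domain of 17 of the 19 in mitosis and of 19 in asynchronous cells, Oct4 of 10 and 14, and Sox2 of 11 and 12. Over the 1322 linked genes the shares in mitosis and in asynchronous cells were 54.1% and 84.4% with Klf4, 14.4% and 32.1% with Oct4, and 19.5% and 30.9% with Sox2.

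The genes of the core factors lay in well covered domains. Pou5f1, which encodes Oct4, lay in a domain of 13251 bp covered to 94.6% by mitotic 1 and 90.1% by mitotic 2, and the Sox2 domain of 9602 bp was covered to 97.0% and 86.5%; these are genes at which mitotic 2 stood apart in fold, and mitotic 1 alone covered them at least as fully. Nanog, a homeobox factor that stabilizes the naive state, lay in a domain of 11026 bp (chr6:122700742-122711767) covered to 90.6% and 99.5%. In it, the highest H3K27ac folds were 18.1 and 14.7 in mitotic libraries, against 39.8 and 35.3 in asynchronous libraries. The peaks at 6 to 7 kb of this domain are those of the Nanog promoter window printed above, where Klf4 folds were 5.77, 4.72 and 5.71 in mitotic and 9.61, 4.57 and 5.20 in asynchronous libraries, and the states overlapped. Folds of different lists are given as description, since they are not on a shared scale. In the Pou5f1 domain a peak at 6.0 to 6.6 kb was shared by 11 of 12 factor lists, all but Klf4 mitotic 2. The Oct4 folds there were 6.15 and 12.2 in mitotic libraries and 15.7 in the asynchronous one. In the Sox2 domain, a peak near 6.1 kb had Sox2 folds of 15.9 and 12.4 in mitotic libraries and 21.1 in the asynchronous one, with Oct4 at 7.54 and 16.6 in mitotic libraries and 31.9 in the asynchronous one.

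Klf family genes had less even domains. Klf4, which encodes the profiled factor itself, lay in a domain just at the minimum width (5002 bp), covered to 86.3% and 92.0%. Over its promoter window, printed above, the 3 asynchronous Klf4 lists had a peak and the 3 mitotic ones had none. Elsewhere in the domain, Klf4 mitotic 1 (fold 6.26) and mitotic 2 (4.52) had a peak. The domain thus counted as occupied by Klf4 in mitosis. Domains farther off, assigned to Klf4 as the nearest gene and named after their values were seen, were of 15597 bp (covered to 77.4% and 79.0%) and 6358 bp (30.8% and 39.3%). In the wider of them, peaks at 9.4 to 10.1 kb were found in 11 of 12 factor lists, all but Klf4 mitotic 1, with Klf4 folds of 8.09 and 5.46 in mitotic 2 and 3, and 8.54, 6.91 and 15.7 in asynchronous 1, 2 and 3. Klf2, a related factor, had 4 linked domains. Their covered shares in mitotic 1 and 2 were 23.2% and 21.6%, 84.3% and 73.2%, 51.4% and 35.1%, and 69.8% and 73.4%, along the chromosome. Klf5, another family member, had a domain of 13231 bp covered to 69.2% and 76.5%.

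Neighbouring domains of other naive factors also differed from each other. Esrrb, an orphan nuclear receptor, had domains of 19340 bp (94.7% and 94.5%), 9657 bp (79.9% and 93.4%) and 10556 bp (83.7% and 76.4%), and the middle one had no factor peak in any list. Tbx3, a T-box repressor, had domains of 6382 bp (45.6% and 51.1%), 9858 bp (71.0% and 68.0%) and 7815 bp (40.6% and 38.1%). Of these the middle one again had no factor peak, and the last had a peak in 10 of 12 lists. A link between factor peaks and covered share was not tested at single genes. Tfcp2l1, a target of LIF signalling, had a domain of 5670 bp over its start covered to 24.8% and 34.7%, and one of 13896 bp covered to 80.4% and 77.1%. Zfp42, also known as Rex1 and a marker of the naive state, had a domain of 9381 bp covered to 91.7% and 92.3%, with Klf4 folds of 4.42, 5.72 and 10.0 in mitotic and 7.37, 9.16 and 21.3 in asynchronous libraries at the promoter printed above. Sall4, a zinc finger factor, had 97.6% and 100% of a domain of 7595 bp covered, and Zscan10 100% and 99.7% of 8101 bp. Rif1, a replication timing factor, had 92.8% and 85.3% of 6600 bp covered, with a peak in 12 factor lists and Klf4 folds of 7.70, 6.07 and 10.4 in mitotic and 19.6, 8.76 and 13.6 in asynchronous libraries. Fbxo15, Dppa5a and Tdgf1 had between 87.1% and 95.6% covered in mitotic 1. Mybl2, a regulator of S phase genes, had 4 linked domains with 40.2% to 90.5% covered in mitotic 1.

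**Figure D5:**
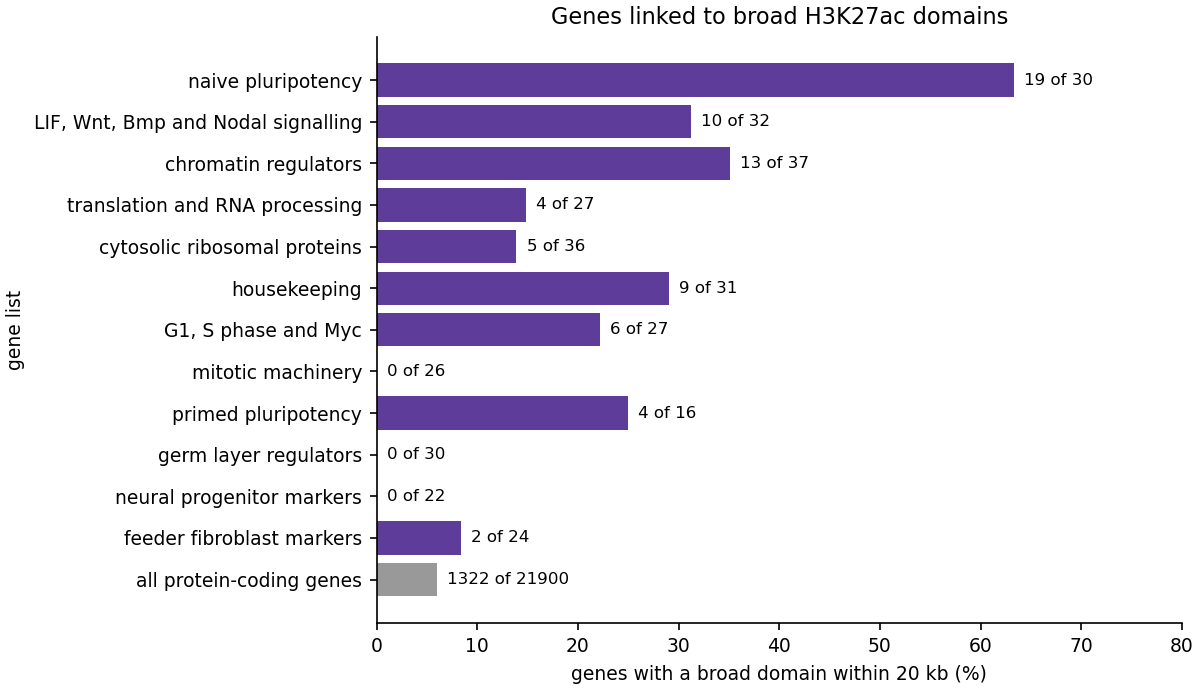
Percent of the genes of each list with a broad domain within 20 kb, with the counts beside the bars; purple bars are the lists and the grey bar all protein-coding genes. The naive pluripotency list is highest at 63.3%, and the mitotic machinery, germ layer and neural progenitor lists are at 0. The lists were chosen with earlier results of these data known.

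Signalling and chromatin genes were linked to domains in the counts given here, and differences between the lists were not tested. Of 32 genes of LIF, Wnt, Bmp and Nodal signalling, 10 were linked (31.2%): Lifr, the LIF receptor subunit, the feedback inhibitor Socs3 and the kinases Pim1 and Pim3 on the LIF side, Nodal, its coreceptor Tdgf1, its antagonist Lefty2 and the inhibitory Smad7 among the transforming growth factor genes, and Fgf4 and Spry2 of the fibroblast growth factor path. Coverage by mitotic 1 and 2 was 94.98% and 92.9% at Nodal and 94.1% and 92.9% at Pim3, and 29.8% and 31.3% at the domain near Pim1. Of 37 chromatin regulators, 13 were linked (35.1%), with a median mitotic covered share of 87.4%. Among them were the Polycomb genes Eed, Suz12, Jarid2 and Mtf2, the DNA methylation genes Dnmt1 and Dnmt3l, the methylcytosine oxidases Tet1 and Tet2, and Kdm5b, Brd2, Arid1a, Hdac1 and Trim28. Tet1 lay in a domain of 19776 bp covered to 93.0% and 96.1%, and Tet2 had domains of 10979 bp (90.3% and 97.3%) and 16128 bp (90.0% and 82.6%). Tet1, Tet2 and Tdgf1 belong to more than 1 list.

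Among broadly expressed genes, linked were 9 of 31 housekeeping genes (29.0%), 6 of 27 genes of the G1 and S phases and Myc (22.2%), 5 of 36 cytosolic ribosomal protein genes (13.9%) and 4 of 27 genes of translation and RNA processing (14.8%), beside 6.04% of all genes. Of 26 genes of the mitotic machinery, none had a linked domain, beside the same 6.04%, although all 26 had a narrower region. Of all 21900 protein-coding genes, 15284 had a region of some width. Some constitutive genes were nearly fully covered in mitosis, as at Rps18 (98.4% and 100%) and Hnrnpa1 (98.1% and 100%). The only domain linked to Trp53, of 6133 bp in the neighbouring Wrap53, had no mitotic H3K27ac peak. These lists hold chosen genes, and a dense gene region counts for each gene in reach.

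Markers of other cells were linked in shares near that of all genes (6.04%), so nothing is read from these counts about the labelled cell type. Of 22 neural progenitor markers and 30 germ layer regulators, none had a linked domain, and 2 of 24 feeder fibroblast markers had (8.33%, Fn1 and Sparc, both also expressed by stem cells). Of 16 genes of primed pluripotency, the later state of the epiblast, 4 were linked (25%), among them Otx2, Foxd3 and Etv5. Their 6 linked domains had a median mitotic covered share of 30.3%, against 87.5% for the naive list and 69.9% for all genes. The Otx2 domains were covered to 37.8% and 40.4% and to 7.88% and 0%, and the Foxd3 domains to 11.1% and 11.6% and to 32.6% and 10.5%. The Etv5 domain was covered to 95.2% and 96.5%. None of the 4 had Oct4 or Sox2 in both mitotic lists in a linked domain, and 3 had each factor in asynchronous cells. Over all linked genes, 14.4% had Oct4 in mitosis and 32.1% in asynchronous cells, and 19.5% and 30.9% had Sox2. With only 4 genes and such low mitotic shares over all linked genes, the lack of mitotic calls is not read as loss. The mitotic call for Oct4 and Sox2 was also the stricter, as stated above.

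The Klf4 motif was about as common in promoter windows of domains as in those of narrower regions. GGGNGTG was found in 36.1% of 509 RefSeq windows inside domains, 35.8% of 11128 inside narrower regions and 29.2% of all 32851. Within domains it was in 58.2% of the 67 windows with Klf4 in mitosis, 41.7% of the 96 with Klf4 in asynchronous cells only, and 30.3% of the 346 without Klf4. Median GC content had the same order, at 65.3%, 62.7% and 56.3%, and its part in the difference was not tested. The Oct4 octamer was found in 2.36% of windows in domains, 1.37% in narrower regions and 1.74% of all. CATTGTT was found in 1.77% of windows in domains, 1.78% in narrower regions and 3.78% of all.

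The mixed culture of 10% stem cells and 90% neural progenitors had few Klf4 peaks in domains. Of its 1334 peaks, 7 lay in domains, 1 in each of 7 domains (0.657%, against 0.112% of all regions). That at Pou5f1 had the highest fold (5.85) and a −log10 q of 2.03, the one at Arid5b had a −log10 q of 0.287, and those at Bicral, Zbtb43, Mex3a, Phactr4 and Septin1 had a −log10 q of 0. The Pou5f1 peak lay 8.4 to 8.7 kb into the domain, in the gene body where H3K27ac mitotic 2 and Oct4 mitotic 1 had their high folds.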

How the data were processed

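The build mm10 and the tools Bowtie2 2.2.5, MACS2 2.1.1, cutadapt 1.8.1 and deepTools 2.3.6 are named, per the submitters' processing notes, without parameters. The deposited narrowPeak files hold the peaks of 1 library each, with a peak score, a fold (ratio over the local background) and −log10 values of p and q, all made by the authors. The least deposited −log10 p was 5.00011. The 7 inputs were not analysed here, and read depth is not given in the sources used here, so no depth stands behind a value.

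Regions were merged and overlapped (at least 1 bp) in pandas 2.3.3 and numpy 2.4.6 under Python 3.11.15; exact tests enumerated every assignment, intervals came from scipy 1.17.1 and figures from matplotlib 3.10.9; interval and permutation functions were tested on simulated data. Domains took the protein-coding gene whose start lay inside, else the gene overlapped most, else the nearest. Starts came from the RefSeq promoter table (17492 of 21900 genes), otherwise either end of the gene was used. A Klf4 site was a merged peak of at least 2 asynchronous lists, an Oct4 or Sox2 site a peak of the single list, and strength the percentile of fold within lists. Named were the 10 widest domains, 6 of highest fold, 6 of lowest and 6 of highest covered share, 8 with most factor lists, those of naive pluripotency genes, 3 on either side of 5000 bp and the 5 widest without mitotic peaks. Members and gene lists were chosen with earlier results of these data known.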

Additional observations from a re-analysis of the deposited data

Results flagged for a closer look

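A Klf4 peak lay in 7 domains in the library of 10% stem cells and 90% neural progenitors, which enters no comparison between states. They are 0.657% of the domains, against 0.112% of all H3K27ac regions, and the difference was not tested. The value is listed because this library was outside the main measurement. Of these 7 peaks, 5 had a −log10 q of 0.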

How the results depend on the processing

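Of 152 values under 29 other settings, 116 kept their direction and side of the threshold or, without a test, moved by less than the spread, the counting interval or 1.5 times; 26 moved, 9 reversed and 1 passed the threshold. The number of domains (1066) was 1792, 668 and 149 at minimum widths of 4000, 6000 and 10000 bp, 2283 with peaks merged up to 1000 bp apart, 531 with a single peak of 5000 bp in each list, and 667 without H3K27ac asynchronous 1 and 787 without asynchronous 2. The percent with a peak in both mitotic lists (97.1) was 94.1, 98.4, 100, 90.3 and 99.1 under the first 5 of these, 91.3 with −log10 q of at least 5, and 97.6 to 98.95 leaving out a library. The covered share stayed between 49.8% and 76.7%. The Klf4 density ratio (−0.08) was 0.060 with a peak in either list, 0.011 with single peaks, 0.091 with the q limit, 0.041 with lists of equal length, 0.32 with 50% of the factor peak inside and 0.32 by midpoint, was 0.036 without H3K27ac asynchronous 1 and 0.063 without asynchronous 2 (−0.12 at the lowest leaving out a library), and was −0.30 with merging up to 1000 bp (past the threshold, at the smallest p that 6 libraries allow). The ratios of Oct4 (0.56) and Sox2 (0.49) kept their sign but were 1.34 and 1.49 by midpoint. The Klf4 share of the list in domains (2.56 points) was −1.95 with lists of equal length and 1.76 to 3.59 leaving out a library; the Klf4 difference in domains (−27.5 points) ran from −39.0 to −3.19, and from −36.5 to −19.2 leaving out a library. Naive genes linked (63.3%) were 33.3% at 10000 bp, 83.3% with merging and 50% to 60% leaving out a library. All genes linked (6.04%) were 9.53%, 3.96%, 1.09%, 12.8% and 3.13% under the first 5, 3.63% without H3K27ac asynchronous 1 and 4.49% without asynchronous 2, and 3.86%, 10.2% and 3.10% within 5 kb, 50 kb and by overlap with the gene. The causes were not tested beyond what each setting changes. Removing the domains at Pou5f1, Sox2, Klf4 and Rn18s-rs5, chosen after seeing the data, reversed nothing. No paired analysis was possible because the asynchronous Klf4 libraries all carry the number 1, Oct4 and Sox2 share fewer than 2 numbers between states, and the H3K27ac states are not tested against each other. Depth was unknown, so a missing peak is no sign of absent signal.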

Other observations

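Broad acetylation was also present in mitosis outside the asynchronous domains. By the same rule, the mitotic lists gave 668 regions of at least 5000 bp among 23007 in both lists. Of these, 405 (60.6%) overlapped 401 domains (37.6% of the 1066), 234 overlapped only narrower asynchronous regions, and 22 overlapped no asynchronous H3K27ac peak. The widest mitotic region was that of Nlrp12 and the microRNA cluster (22765 bp). The widest of the 22 lay in Myo16 (19607 bp, chromosome 8), Adamts2 (13946 bp, chromosome 11), which encodes a procollagen protease, and Rbms3 (12957 bp, chromosome 9), and a second one in Myo16 had 5535 bp.

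Chromosomes differed in both number and mitotic coverage of domains. The 54 domains of chromosome 8 were covered to 78.1% and 77.7% in mitotic 1 and 2, whereas no other autosome exceeded 70.5%. On the X chromosome 9 of 979 regions (0.919%) were domains. Of the 100 peaks of highest fold in each list, 22 and 25 lay in domains in mitotic 1 and 2, against 26 and 24 in asynchronous 1 and 2. Of all peaks, 7.86% and 8.11% touched a domain in mitotic 1 and 2, against 3.46% and 4.25% in asynchronous 1 and 2. Because the asynchronous lists chose the domains by width, fewer and longer asynchronous peaks fill them, and these counts are not a comparison of states. By base pairs, 13.4% and 14.1% of the mitotic lists lay in domains, against 14.4% and 15.2% of the asynchronous lists.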
